A study of Homo sapiens with 4 samples.

Results

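Integrins and laminins were followed as 35 genes, 25 encoding integrin subunits and 10 encoding laminin chains, out of 19736 genes named on the array. The members were fixed by symbol and found through the RefSeq accession of each probe, which gave 45 probes and at least 1 probe for each gene. Not every chain of both families is among them. The RNA came from Hs746T, an established gastric carcinoma cell line that carries an exon-skipping mutation and an amplification of the receptor tyrosine kinase gene MET, so both features are shared by all conditions, controls included. Total RNA was hybridised to 4 single-colour Agilent human arrays, 1 per condition, comprising DMSO (solvent control), PHA665752 (a MET kinase inhibitor), sc siRNA (scrambled control) and MET siRNA. The siRNA-treated cells were collected at 48 h, while for PHA665752 the array dose and exposure were not given in the sources used here. The inhibitor was set against DMSO and the MET siRNA against sc siRNA, to ask how these genes stood when MET was suppressed by a drug or by knockdown. These comparisons share no array. A further comparison, sc siRNA over DMSO, shows how far the control arrays lay apart and shares an array with each of the others.

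There were no replicate arrays, so no value has an error between cultures and nothing was tested. How precise the values are is limited by the number of arrays. The values are background-subtracted spot intensities. A log2 ratio is the difference between log2 intensities after the 75th percentile of each array was subtracted, and a change past 2-fold is a log2 ratio above 1 or below -1. Between 61.1% and 68.2% of the probes were well above background by the software's mark, the lowest share being on the MET siRNA array. Repeated spots of a probe differed by a median SD of 0.0531 to 0.0589 in log2 units, a measure of spot noise alone. The median absolute log2 ratio between the control arrays was 0.19 over 14271 genes. The MET probe had intensities of 221451 (DMSO), 100492 (PHA665752), 190010.0 (sc siRNA) and 77853 (MET siRNA), log2 ratios of -0.93 and -1.33.

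Integrins are receptors of an alpha and a beta subunit that fix cells to the extracellular matrix and signal through focal adhesion proteins. Laminins are large trimers of an alpha, a beta and a gamma chain that build the basement membrane, the sheet beneath epithelia, and are bound by integrins alpha3beta1, alpha6beta1, alpha7beta1 and alpha6beta4. Which alpha, beta and gamma chains a cell makes decides which laminins it can assemble, and epithelial cells are known for laminins with the alpha3 or alpha5 chain.

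The 250 bases before the annotated start of 5 genes are shown here, because these genes stand out in the results below. LAMA3, LAMA5 and LAMB2 were the laminin genes higher past 2-fold with PHA665752, and LAMA2 and ITGA2 had the lowest ratios of their families. The sequences are from RefSeq on GRCh38.p14, 5′ to 3′ on the strand of the gene, which is not the build on which the array was designed. Capitals mark the letters TGANTCA, the core bound by AP-1 factors, or CCGGAA within NCCGGAAN, the core bound by ETS factors, on either strand. The windows lie at chr18:23872770-23873019 (plus strand) for LAMA3, chr20:62367313-62367562 (minus strand) for LAMA5, chr3:49133051-49133300 (minus strand) for LAMB2, chr6:128882888-128883137 (plus strand) for LAMA2 and chr5:52989102-52989351 (plus strand) for ITGA2.
LAMA3: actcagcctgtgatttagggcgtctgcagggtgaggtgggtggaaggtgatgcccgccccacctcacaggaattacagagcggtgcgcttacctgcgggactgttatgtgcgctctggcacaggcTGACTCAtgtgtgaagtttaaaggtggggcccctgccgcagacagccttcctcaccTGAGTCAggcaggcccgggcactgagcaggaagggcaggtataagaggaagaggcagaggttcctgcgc
LAMA5: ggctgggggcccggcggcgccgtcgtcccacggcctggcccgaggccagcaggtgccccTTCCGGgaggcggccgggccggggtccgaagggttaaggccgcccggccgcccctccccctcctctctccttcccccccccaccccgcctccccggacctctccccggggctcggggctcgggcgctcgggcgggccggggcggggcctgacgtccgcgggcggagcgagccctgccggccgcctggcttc
LAMB2: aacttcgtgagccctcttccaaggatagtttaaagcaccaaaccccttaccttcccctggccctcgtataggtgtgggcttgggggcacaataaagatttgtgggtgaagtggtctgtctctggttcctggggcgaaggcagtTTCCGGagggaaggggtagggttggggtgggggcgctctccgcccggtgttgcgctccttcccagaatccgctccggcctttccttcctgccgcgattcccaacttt
LAMA2: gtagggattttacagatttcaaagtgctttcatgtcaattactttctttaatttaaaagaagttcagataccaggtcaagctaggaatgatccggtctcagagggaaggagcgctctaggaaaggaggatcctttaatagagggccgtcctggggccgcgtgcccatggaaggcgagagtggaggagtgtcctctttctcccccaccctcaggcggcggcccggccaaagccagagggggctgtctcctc
ITGA2: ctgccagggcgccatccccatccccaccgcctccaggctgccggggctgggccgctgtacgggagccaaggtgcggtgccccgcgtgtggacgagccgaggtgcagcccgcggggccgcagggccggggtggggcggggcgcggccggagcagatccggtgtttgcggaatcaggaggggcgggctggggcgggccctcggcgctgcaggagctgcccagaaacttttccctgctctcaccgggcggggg

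A promoter window was held for 25 of the 35 genes. TGANTCA was in 1 of the 25, LAMA3, which had 2 copies centred 122 and 66 bases before the start. Over 27305 promoters of this length, 6.6% held TGANTCA at least once and 0.385% held 2 or more copies. The LAMA3 start used in this window lies 183567 bases downstream of the 5′ end of the gene, at the start of a shorter transcript, and the array probe carries the accession NM_198129, so the probe is not known to report this start alone. NCCGGAAN was in 4 of the 25, namely ITGB1, ITGB5, LAMA5 and LAMB2, against 14.8% of all promoters. Each of these 4 held TTCCGG, the letters read on the other strand, and no window of these genes held both motifs. These matches describe letters in the windows and were not tested against the ratios.

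Most of the genes could be measured in Hs746T cells. Of the 35 genes, 30 had a probe well above background on the PHA665752 array and 28 on each of the others. The genes without a probe well above background on any array were ITGA2B, ITGA4, ITGA8, ITGAL and ITGB6. ITGA4, which pairs with ITGB1 or ITGB7 and binds fibronectin and VCAM1, had 3 probes, all with intensities between 2.37 and 4.56. ITGA2B is the platelet alphaIIb subunit, ITGAL the leukocyte alphaL subunit and ITGB6 an epithelial partner of alphaV. ITGA11, a collagen receptor subunit, had no usable spot with DMSO, so no probe stood for it and it is in none of the counts and medians below. Its siRNA pair had intensities of 24.3 and 19.8, a log2 ratio of -0.34.

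With PHA665752, 29 of the 35 genes had a ratio, 1 of them (ITGB2) as a bound. Of these, 5 were higher past 2-fold (LAMA3, LAMA5, ITGB8, LAMB2 and ITGAX) and 5 were lower (LAMA2, ITGA2, LAMA4, ITGB3 and LAMB3). Among 14318 genes of all kinds with a ratio, 13.1% were higher and 8.03% lower past 2-fold, 21.1% together. The share was 60% in the laminin genes, 6 of 10, and 21.1% in the integrin genes, 4 of 19. LAMA4 is among the 6 by its brightest probe alone, and its other probes stayed within 2-fold. With each gene read at the middle value of its probes, LAMA4 stood at -0.29 and 4 members were lower past 2-fold. The 60% therefore depends on which LAMA4 probe is read. Of the genes of all kinds past 2-fold, 62.0% were higher, and 42.5% with scaling to the 50th percentile. That scaling moved the median of all genes from 0.075 to -0.17 and left 4 members higher and 5 lower. The median log2 ratio with PHA665752 was 0.34 in the integrin genes and 0.43 in the laminin genes. With MET siRNA, 0 of 27 genes were past 2-fold, beside 2.73% of 13644 genes of all kinds. The ITGB8 ratio there is a bound, so its change may be larger. The lowest ratio, -0.9998 for ITGA2, lay just short of 2-fold. The median log2 ratio with MET siRNA was -0.091 in the integrin genes and -0.071 in the laminin genes, beside -0.017 over all genes. Between the controls, LAMA1 was higher and ITGB8 lower past 2-fold, 2 of 28 genes, beside 2.89% higher, 1.16% lower and 4.05% in all among genes of all kinds.

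Among the laminin alpha chains, LAMA3 and LAMA5 were higher and LAMA2 was lower in both treatments. In these bulk samples, fewer cells that make a chain and less RNA per cell cannot be told apart. LAMA3, the alpha chain of the epithelial laminin-332, had intensities of 956 (DMSO), 5091 (PHA665752), 792 (sc siRNA) and 1429 (MET siRNA). Both treated arrays lay above both controls, the inhibitor array far above. The LAMA3 log2 ratio was 2.63 for the inhibitor (6.18-fold) and 0.80 for the siRNA (1.75-fold), against -0.019 between the controls. Only 0.831% of genes with a ratio were higher with PHA665752 and 3.11% with MET siRNA. LAMA5, the alpha chain of the widespread epithelial laminins, had intensities of 167, 731, 127 and 202 in the same order of arrays. Its pattern was that of LAMA3, with log2 ratios of 2.34 and 0.63 and -0.15 between the controls. LAMA2, the alpha chain of muscle and nerve basement membrane, went the other way, at 214, 21.7, 194 and 124. Both treated arrays lay below both controls, at log2 ratios of -3.09 (8.52-fold lower) and -0.70 (1.62-fold lower), with 0.11 between the controls. With normexp background correction, which shrinks the ratios of dim probes, the LAMA2 ratio with PHA665752 was -1.42.

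**Figure D1:**
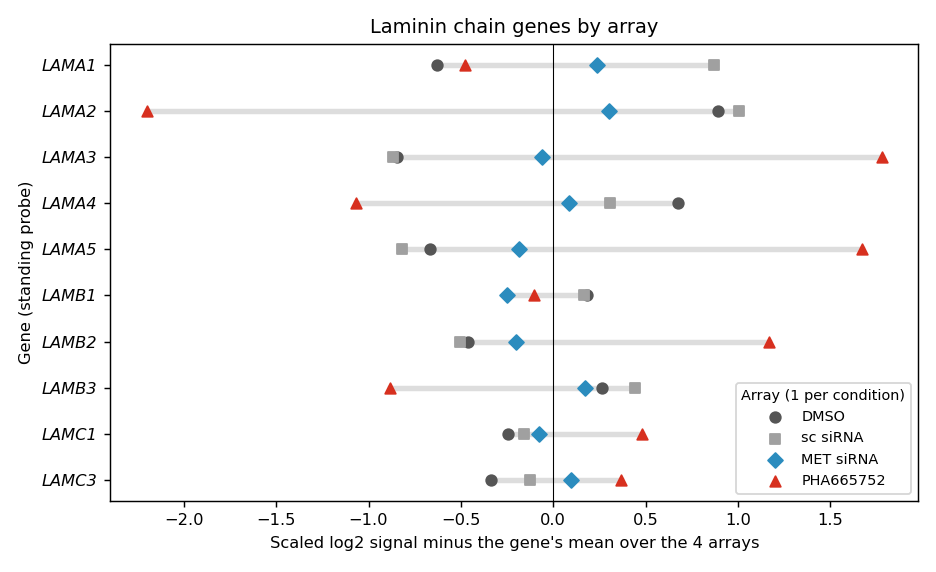
Laminin chain genes on the 4 arrays, 1 array per condition and no error bars. The x axis is the scaled log2 signal of the probe that stands for each gene minus its mean over the arrays. PHA665752 lies far above the other arrays for LAMA3, LAMA5 and LAMB2 and far below them for LAMA2, LAMA4 and LAMB3, with MET siRNA on the same side of both controls in each, while the LAMA1 arrays overlap.

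LAMA4, an alpha chain of vessel and mesenchymal laminins, gave an answer that depended on the probe. Its brightest probe, A_33_P3391603 (NM_001105209), had intensities of 4002 (DMSO), 1029 (PHA665752), 2606 (sc siRNA) and 2302 (MET siRNA), log2 ratios of -1.75 and -0.23. The other 3 LAMA4 probes had log2 ratios of -0.32, -0.25 and 0.20 with PHA665752 and of 0.084, -0.012 and -0.17 with MET siRNA. All 4 probes were well above background on each array, although the one at 0.20 was dim (43.7 to 49.4), and 1 of 4 was lower past 2-fold. They carry accessions of different LAMA4 transcripts, NM_001105206, NM_001105207 and NM_001105209, and which transcripts each probe detects was not tested. LAMA1, the alpha chain of the early embryo, had 1 of 2 probes above background, at 27.4, 26.2, 65.1 and 43.2. Both siRNA arrays of LAMA1 lay above the DMSO and PHA665752 arrays. The log2 ratio was 1.503 between the controls, 0.15 for the inhibitor and -0.64 for the siRNA, where 2.33% of genes were lower. What set the siRNA arrays apart was not tested. With normexp the LAMA1 difference between the controls was 0.76.

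**Figure D2:**
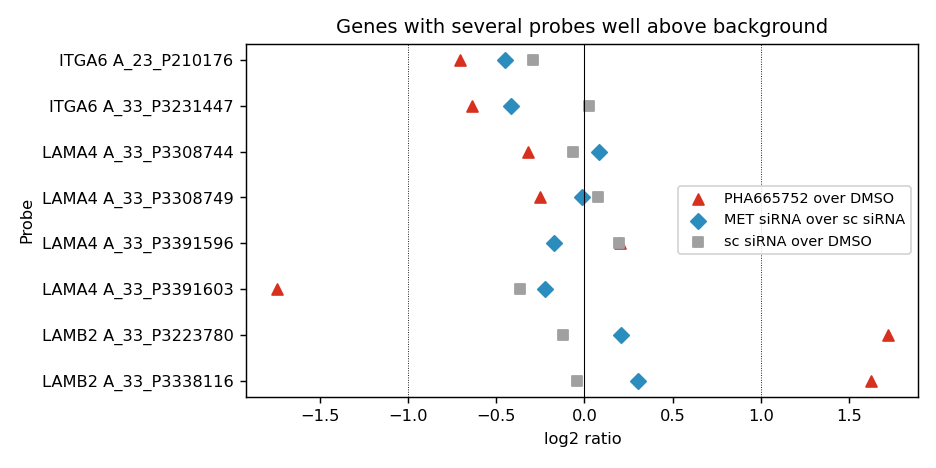
Log2 ratios of each probe of ITGA6, LAMA4 and LAMB2, the members with several probes well above background on every array. Triangles are PHA665752 over DMSO, diamonds MET siRNA over sc siRNA and squares sc siRNA over DMSO, and dotted lines mark 2-fold. The probes of ITGA6 and of LAMB2 lie close together for PHA665752, while those of LAMA4 run from -1.75 to 0.20.

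Among the beta chains, LAMB2 was higher and LAMB3 and LAMB1 were lower. LAMB2, which replaces LAMB1 in some laminins, had intensities of 5357 (DMSO), 14268 (PHA665752), 4365 (sc siRNA) and 5565 (MET siRNA) at its brighter probe. Its log2 ratios were 1.63 and 0.30, and 1.72 and 0.21 at the second probe, while the controls differed by -0.043 and -0.12. The siRNA value was the less firm, since it was 0.0033 at the brighter probe when arrays were scaled to the median of their own probes well above background. LAMB3, the beta chain of laminin-332, had intensities of 1758, 684, 1666 and 1430. Both treated arrays of LAMB3 were below both controls, with log2 ratios of -1.15 and -0.27. LAMB1, the most widely used beta chain, stood at 24571, 17351, 20397 and 15778, log2 ratios of -0.29 and -0.42. Which of these was larger in size depended on the scaling, since they were -0.53 and -0.45 with the 50th percentile. LAMB1 did not reach 2-fold under any of the alternatives.

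The gamma chains stayed within 2-fold. LAMC1, the gamma chain of most laminins, had intensities of 1889, 2699, 1685 and 1845, log2 ratios of 0.73 for the inhibitor and 0.084 for the siRNA. The siRNA ratio was within the difference between the controls, 0.089. LAMC3 had 1 of 3 probes above background, at 27.2, 38.4, 26.4 and 31.9, with log2 ratios of 0.71 and 0.23 and 0.21 between the controls. The scaling to the median of the probes well above background moved the median siRNA ratio of all genes from -0.017 to -0.31 and turned the siRNA ratios of LAMC1 and LAMC3 to -0.22 and -0.075.

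ITGA3, ITGA6, ITGA7, ITGB1 and ITGB4, the 5 subunits of the laminin receptors named above, stayed within 2-fold in each comparison. Since 21.1% of genes of all kinds were past 2-fold with the inhibitor, 5 genes are too few to call this set stable. ITGA2, whose subunit binds laminin in some cells, is grouped below with the collagen receptors and had an inhibitor log2 ratio of -2.58. ITGA6, the alpha subunit of alpha6beta1 and of the hemidesmosome receptor alpha6beta4, had intensities of 7685 (DMSO), 4062 (PHA665752), 5274 (sc siRNA) and 3992 (MET siRNA). Both treated arrays lay below both controls at log2 ratios of -0.71 and -0.45, and the second ITGA6 probe gave -0.64 and -0.42. ITGA3, the alpha subunit of alpha3beta1, was higher with the inhibitor alone, at 2871, 3704, 2050 and 1998, log2 ratios of 0.58 and -0.084. ITGA7, known from muscle, had intensities of 462, 573, 296 and 382 and log2 ratios of 0.52 and 0.32, but its controls differed by -0.39, so the arrays overlapped. ITGB1, the beta subunit shared by most matrix receptors, had up to 10 usable spots per array. Its intensities were 2153, 1451, 1841 and 1597, with an SD between spots of at most 0.0422, and its log2 ratios of -0.36 and -0.25 exceeded the 0.027 between the controls. ITGB4, the beta partner of alpha6 in hemidesmosomes, was dim at 48.1, 52.3, 28.4 and 25.5. The ITGB4 log2 ratios of 0.34 and -0.20 were both smaller in size than its difference between the controls, -0.51.

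**Figure D3:**
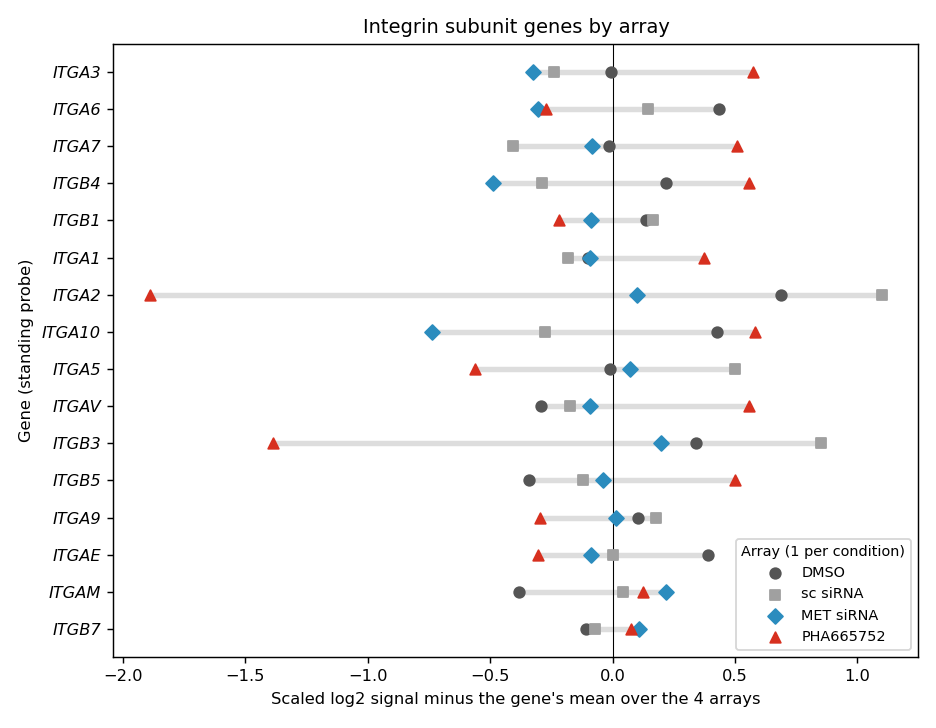
Integrin subunit genes well above background on all arrays, plotted as for the laminin chains, with laminin receptor subunits first, then collagen receptors, RGD receptors and the rest. PHA665752 lies far below the other arrays for ITGA2 and ITGB3, at log2 ratios of -2.58 and -1.73, and the other genes stay within 2-fold of their control with both treatments.

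Of the collagen receptor alpha subunits, ITGA2 stood out. It encodes the alpha2 subunit, which pairs with ITGB1 to bind fibrillar collagen and, in some cells, laminin. ITGA2 had intensities of 208 (DMSO), 30.1 (PHA665752), 233 (sc siRNA) and 120 (MET siRNA), so that both treated arrays lay below both controls. The log2 ratio was -2.58 for the inhibitor (5.97-fold lower) and -0.9998 for the siRNA (2.0-fold lower), and the controls differed by 0.41 in the other direction. Only 0.803% of genes were lower with PHA665752 and 0.696% with MET siRNA. Over the alternatives the inhibitor ratio lay between -2.85 and -1.41 and the siRNA ratio between -1.30 and -0.76, past 2-fold in 3 of 9. ITGA1, the alpha subunit of the other widespread collagen receptor, stayed within 2-fold, at 256, 307, 203 and 224 and log2 ratios of 0.48 and 0.091. ITGA10, known from cartilage, had intensities of 967, 927, 499 and 374. Both siRNA arrays of ITGA10 lay below the DMSO and PHA665752 arrays. Its log2 ratio was -0.70 between the controls, 0.15 for the inhibitor and -0.46 for the siRNA, where 5.36% of genes were lower.

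The receptors for RGD ligands such as fibronectin and vitronectin are built on alphaV and alpha5. ITGAV, with 10 spots per array, had intensities of 2229, 3458, 2028 and 2218. Only the inhibitor array stood out, with a log2 ratio of 0.85 against 0.082 with MET siRNA and 0.12 between the controls. The beta partners of alphaV differed from each other. ITGB3, the beta subunit of the vitronectin receptor alphaVbeta3, had intensities of 611 (DMSO), 159 (PHA665752), 730 (sc siRNA) and 479 (MET siRNA). Both treated arrays of ITGB3 were below both controls, with log2 ratios of -1.73 (3.31-fold lower) and -0.65 (1.57-fold lower), and the controls differed by 0.51. ITGB5, which also pairs with alphaV to bind vitronectin, followed ITGAV, at 3439, 5313, 3359 and 3674 and log2 ratios of 0.84 and 0.083. ITGB8, the partner that activates latent TGF-beta, was dim at 26.9, 81.4, 9.3 and 17.8 and was not well above background with sc siRNA. The ITGB8 log2 ratio was 1.81 with PHA665752 (3.51-fold), while MET siRNA was at least 1.69-fold higher than sc siRNA and sc siRNA at least 2.21-fold lower than DMSO. With normexp the ITGB8 log2 ratio was 0.87 for the inhibitor, short of 2-fold, 0.19 for the siRNA and -0.14 between the controls, so neither bound held there. ITGA5, the alpha subunit of the fibronectin receptor, had intensities of 1354, 795, 1618 and 1240 and log2 ratios of -0.55 and -0.43, with 0.51 between the controls. The ITGA5 arrays overlapped, MET siRNA being close to DMSO.

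Other subunits stayed within 2-fold or were dim. ITGA9, a receptor subunit for tenascin and osteopontin, stood at 311, 202, 274 and 253, log2 ratios of -0.40 and -0.16. ITGAE, the alphaE subunit that binds E-cadherin in lymphocytes, was well above background throughout, at 2440, 1299, 1562 and 1515, with log2 ratios of -0.70 and -0.091 and -0.39 between the controls. ITGAM and ITGB7, known from leukocytes, had log2 ratios of 0.51 and 0.18 with PHA665752, on intensities between 56.2 and 83.7, and both stood at 0.18 with MET siRNA. ITGAX, the alphaX subunit of myeloid cells, was at 18.5, 32.4, 15.7 and 8.36, and its log2 ratio with PHA665752 was 1.02. It passed 2-fold in 5 of 9 alternatives and was short of it with normexp, where it was 0.47, and with each of the other scalings. Its siRNA pair gave no ratio, because the bound for the dim array pointed the other way. ITGB2, the beta partner of ITGAM and ITGAX, was well above background only with PHA665752, at 15.6, which was at least 1.67-fold higher than DMSO. Of 8 leukocyte markers with a probe, PTPRC, CD3D, CD14, CSF1R and CD68 were well above background on all arrays, CD2 on 3, and CD3E and MS4A1 on none. PTPRC, the pan-leukocyte antigen, had intensities of 22.7 to 37.8. CSF1R, a receptor of macrophages, had log2 ratios of -0.94 and -0.44, and PTPRC, CD3D, CD14 and CD68 lay between -0.094 and 0.36 for the inhibitor. The summed intensity, not scaled, of the leukocyte markers ran from 7576 with PHA665752 to 12520 with MET siRNA, of which CD68 made up 7212 to 12170, and its part in the values of ITGAM, ITGAX and ITGB2 was not tested.

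Differences after the siRNA went the way of those after the inhibitor in most of the genes. Of 27 members with both ratios, 23 had the same direction, 85.2%, beside 69.6% of 13437 genes of all kinds. Over the alternatives the number of members with both ratios could differ, and the share of all genes with the same direction was not computed. Counts under them therefore cannot be set beside the 69.6%. They ran from 16 to 28 members, 16 with scaling to the median of the probes well above background. That scaling turned the siRNA ratios of ITGA1, ITGAM, ITGAV, ITGB5 and ITGB7 below 0, to between -0.22 and -0.12, as it did for LAMC1 and LAMC3. Inhibitor ratios turned below 0 with the 50th percentile for ITGA10, and with that or quantile normalization for ITGB7 and LAMA1, to lowest values of -0.093, -0.093 and -0.20. Of the 9 members past 2-fold with PHA665752 that had a siRNA ratio, 9 went the same way with the siRNA. Among genes of all kinds past 2-fold the share was 81.3% of 2658. Each of the alternatives kept both directions for each of the 9 that had a ratio. LAMA4 is among the 9 by its brightest probe. Its probes at -0.32 and 0.20 with PHA665752 went the other way with the siRNA, at 0.084 and -0.17. The LAMA4 probe at -0.25 went the same way, at -0.012. In the siRNA comparison none of the 9 members had a ratio past 2-fold, but that of ITGB8 is a bound and its change may be larger. Among 26 members well above background on every array, both treated arrays lay above both control arrays in 10 and below them in 10, beside 24.2% and 25.5% of 13072 genes of all kinds. The gap between the treated and control arrays was largest for LAMA3, 0.79 in log2 units, followed by ITGA2 at 0.59, LAMA2 at 0.59 and LAMA5 at 0.48. It was 0.14 for ITGB3 and ITGB7 and at most 0.092 for ITGA1, ITGAV, ITGB5, ITGAM, LAMC1, LAMB3, ITGAE and ITGA9, below the median absolute log2 ratio between the control arrays.

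**Figure D4:**
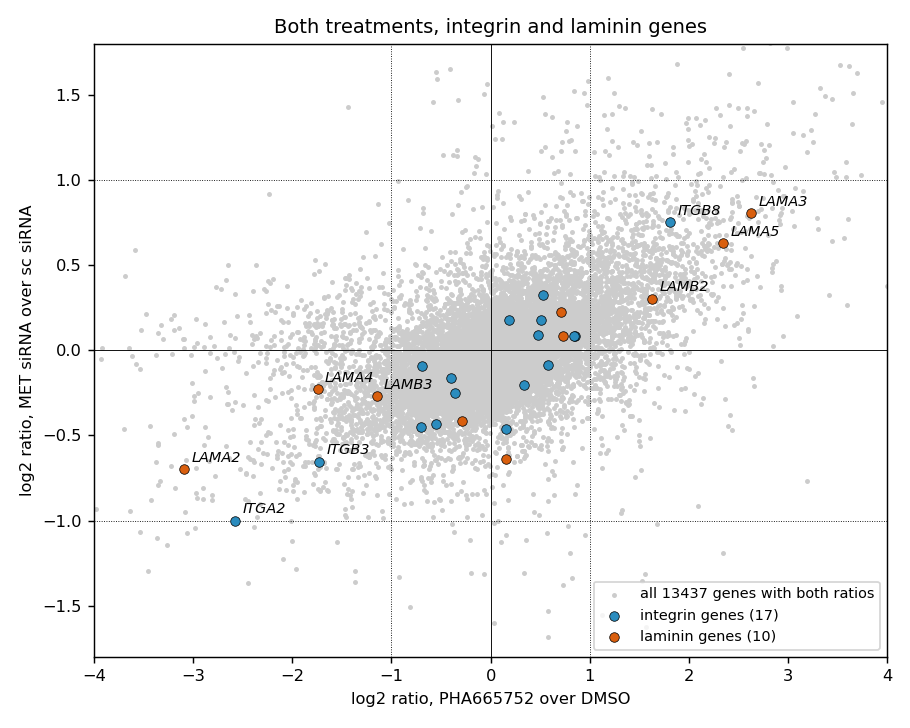
Log2 ratio of MET siRNA over sc siRNA (y axis) against that of PHA665752 over DMSO (x axis) for integrin genes (blue), laminin genes (orange) and all genes with both ratios (grey), 63 of which lie outside the axes. Dotted lines mark 2-fold. The labelled members, those past 2-fold with PHA665752, have ratios of the same sign in both comparisons.

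The difference between the log2 ratios of 2 genes on the same arrays does not depend on the scaling constant. Chains that occupy the same place in a trimer or receptor were therefore set against each other, as were some that are partners. This shows unequal change and not which of the chains changed. For the laminin beta chain, LAMB2 shifted against LAMB1 by 1.92 for the inhibitor and 0.72 for the siRNA, against -0.027 between the controls. Over the alternatives these values ran from 1.92 to 2.02 and from 0.64 to 0.72. For the alpha chain, LAMA3 shifted against LAMA2 by 5.72 and 1.504, with -0.13 between the controls. LAMA5 shifted against LAMA2 by 5.43 and 1.33. With the inhibitor these pairs ran down to 3.94 and 3.36 over the alternatives. LAMA3 shifted against LAMA5 by 0.28 and 0.18, and by up to 0.58 and 0.21 over the alternatives. The alpha and beta chains of laminin-332 moved apart, LAMA3 against LAMB3 by 3.78 and 1.07. Their shift ran from 3.68 to 3.86 for the inhibitor and from 0.996 to 1.07 for the siRNA over the alternatives.

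Receptor subunits were set against each other in the same way. ITGA1 shifted against ITGA2 by 3.05 for the inhibitor and 1.09 for the siRNA, with -0.49 between the controls, and the inhibitor value ran from 1.73 to 3.19 over the alternatives. ITGB5 shifted against ITGB3 by 2.57 and 0.74, with -0.29 between the controls. Among the alpha subunits of the laminin receptors, ITGA3 shifted against ITGA6 by 1.29 and 0.36, with 0.057 between the controls, and ITGA7 against ITGA6 by 1.23 and 0.77. Of the beta partners of alpha6, ITGB4 shifted against ITGB1 by 0.69 and 0.049, with -0.53 between the controls.

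**Figure D5:**
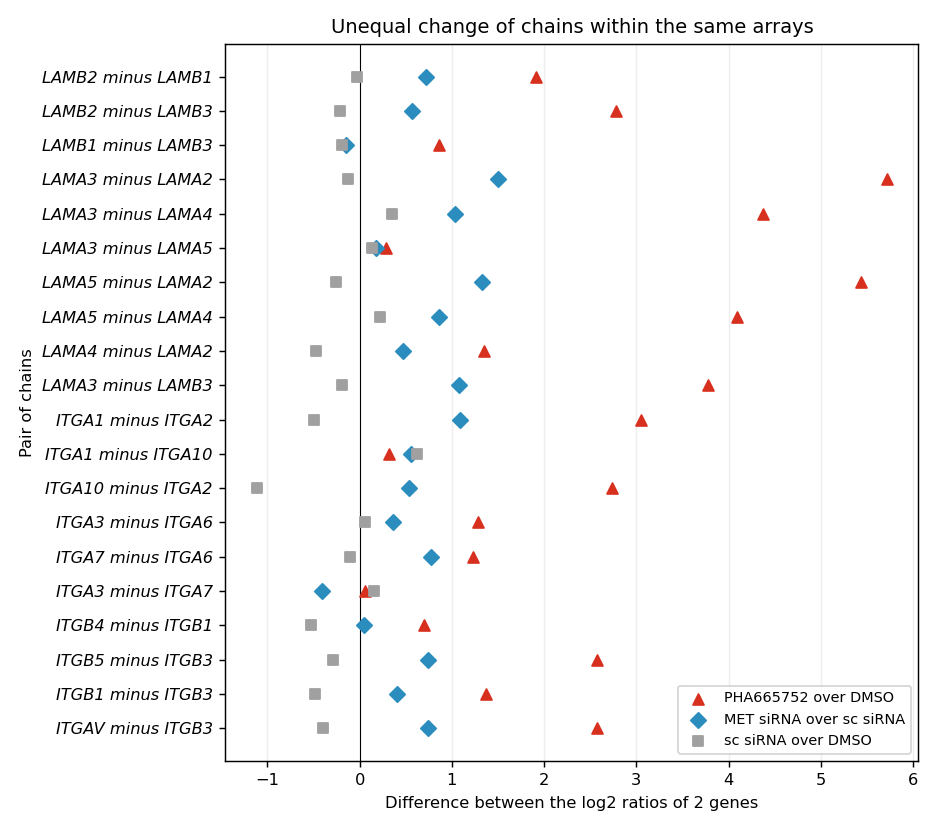
Difference between the log2 ratios of 2 genes for the 20 pairs of chains with a measured value in each comparison. The pairs share a place, or are partners, in a trimer or receptor. Triangles are PHA665752 over DMSO, diamonds MET siRNA over sc siRNA and squares sc siRNA over DMSO. The alpha-chain pairs with LAMA2 reach beyond 5 for PHA665752, and the siRNA values lie between the inhibitor value and 0 in most pairs.

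Other genes of matrix adhesion were followed in 3 lists. Of the adhesion complex genes, the proteins that link integrins to actin and signalling, 21 of 26 had a ratio with PHA665752, 3 higher and 2 lower past 2-fold, and their median was -0.17. The share was 23.8%, beside 21.1% of all genes, and over the alternatives 1 to 4 genes were higher and 1 to 2 lower. The lower genes were TNS1 (-2.24), a tensin of fibrillar adhesions, and FERMT1 (-1.55), the epithelial kindlin that helps to activate integrins. The higher ones were PTK2B (1.66), a focal adhesion kinase relative that was dim with DMSO (38.4), LIMS2 (1.38), a partner of integrin-linked kinase, and SRC (1.04). TLN1 and ILK, which act at the integrin tail, had log2 ratios of 0.15 and -0.17.

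Of the basement membrane genes and laminin partners, 17 of 19 had a ratio with PHA665752, 5 higher and 1 lower past 2-fold, at a median of 0.25. The share was 35.3%, against 21.1% of all genes. NTN4 (2.43), a netrin that binds laminin, HSPG2 (1.99), the gene of perlecan, AGRN (1.35), DST (1.17) and FRAS1 (1.06) were higher. COL17A1 (-2.08), the hemidesmosome collagen that works beside alpha6beta4, was lower, and PLEC, its plakin partner, stood at -0.034. Of the other integrin ligands, 17 of 19 had a ratio with PHA665752, 9 higher and 2 lower, at a median of 1.04. That is 64.7% past 2-fold, again against 21.1% of all genes. Over the alternatives 6 to 9 of the ligands were higher and 1 to 3 lower. The ratios largest in size were those of COL1A1 (3.32), EDIL3 (3.26), an RGD protein that binds alphaV receptors, COL1A2 (1.9966), SPP1 (-1.9926), the gene of osteopontin, FN1 (1.96) and FBN1 (1.92). EDIL3 was dim with DMSO (34) and sc siRNA (33.8), and FBN1 with DMSO (38.6), so their ratios are less firm. With MET siRNA, COL1A1 (1.54) and EDIL3 (1.23) were the only genes of the 3 lists past 2-fold, 12.5% of the 16 ligands with a ratio beside 2.73% of all genes. The medians were -0.037 for adhesion complex, 0.047 for basement membrane and 0.25 for other ligands. Between the controls, CDH1 alone was past 2-fold, at -1.08.

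Markers of the labelled cell type and of others were read beside these values. Of 7 epithelial markers, 6 were well above background on all arrays and CDH1 on 3, at 10.4 to 33. All 5 mesenchymal markers with a probe were well above background as well, so Hs746T held both. Of the endothelial and platelet markers, which are read because ITGB3 and LAMA4 are also known from those cells, PECAM1 had a log2 ratio of -2.39 for the inhibitor and -0.44 for the siRNA, and PF4 had -1.76 and -0.49. VWF went the other way, at 2.77 and 1.13. CDH5 stood at -0.21 and -0.091, and GP9, the other platelet marker well above background on all arrays, at -0.011 and 0.0047. KDR, GP1BA and GP6 were not well above background on any array. TEK, the remaining endothelial marker, was at 11 to 20.1 and well above background on 2 arrays. The summed intensity, not scaled, was 1989 (DMSO), 567 (PHA665752), 1155 (sc siRNA) and 952 (MET siRNA) for 5 endothelial markers, and 313, 151, 300 and 253 for 4 platelet markers. PECAM1 alone made up 1846, 304, 1039 and 791 of the endothelial sum, and PF4 made up 205, 52.2, 210 and 155 of the platelet sum. VWF was at 30.9 with DMSO and 182 with PHA665752, so the fall of the endothelial sum is that of PECAM1. The part of these markers in the values of ITGB3 and LAMA4 was not tested.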

How the data were processed

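Total RNA of Hs746T cells was labelled with Cy3 and hybridised to 4 Agilent human V2 arrays on 1 slide. The authors deposited the scanner files, written by Feature Extraction 11.5.1.1 according to their headers. Per the file headers, the processed signal is a linear intensity, from which background and spatial trend were removed before deposit and which was not normalized across arrays. The array design is annotated on hg19, so no probe coordinates are given.

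Control spots were dropped, as were outlier-marked spots, 1.69% to 5.58% per array, and no spot was marked as saturated. Log2 intensities were averaged over the spots of a probe, and the 75th percentile of each array was subtracted. A probe was well above background when at least 50% of its usable spots carried this mark. A probe well above background on 1 array of a pair gave a bound, taken against the dim array's lowest signal well above background (10.2 to 17.4) or the probe's own where that was higher, and none where that bound had no size. A probe above background on neither gave no ratio. Of 34127 probes, 25767 (75.5%) were named through RefSeq accessions. The brightest probe with a value on every array stood for a gene, for 18751 genes.

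With 1 array per condition no test was possible. The members, the gene lists and the pairs of chains were chosen with earlier results of these data known. Every member was accounted for, and members with a ratio were named with their values, those past 2-fold and the laminin receptor and laminin chains first. From the lists of other genes at most 6 past 2-fold were named in each comparison, and TLN1, ILK, PLEC and the markers are named outside this rule, picked with their values in view. The alternatives were 3 other scalings, normexp on the median spot signal (offset 50), no filter or a stricter filter on dim probes, the median over a gene's probes, the series matrix intensities and ignoring background outlier marks. Intervals of counts do not apply to arrays. A further leukocyte marker is not reported here. Ratios were first tested on simulated data. The known changes there were placed only in bright probes well above background on every array, so bounds and dim probes were not tested. Software was Python 3.11.15, numpy 2.4.6, pandas 2.3.3, matplotlib 3.10.9, R 4.3.3 and limma 3.58.1.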

Additional observations from a re-analysis of the deposited data

Results flagged for a closer look

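ITGB4, the hemidesmosome beta subunit, was higher with PHA665752 (log2 ratio 0.34) and lower with MET siRNA (log2 ratio -0.20), each by more than the median absolute ratio between the control arrays. Opposite directions in the 2 comparisons drew attention to it, and the difference between the treatments was not tested, since each condition had 1 array. Its intensities lay between 25.5 and 52.3, and sc siRNA was lower than DMSO by more than either change (log2 ratio -0.51). With normexp background correction the siRNA ratio was 0.023, on the same side as that of the inhibitor. The inhibitor ratio was 0.091 with scaling to the 50th percentile and 0.048 with quantile normalization, both below the median absolute ratio between the control arrays.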

How the results depend on the processing

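No paired analysis was possible because each condition had a single array. The 9 alternatives gave 283 values for the counts and medians, of which 253 stayed within 1.5 times the count or within 0.19 of the median, and the applications to gene lists and chain pairs were chosen after seeing the data. With the 50th percentile, the median with PHA665752 was 0.091 for integrins and 0.18 for laminins, 1 member was lower past 2-fold with MET siRNA, and 3 basement membrane genes were higher and 2 lower with PHA665752. With quantile normalization, the laminin median was 0.097, 1 member was lower with MET siRNA, and 1 other integrin ligand was lower with PHA665752. With scaling to the median of probes well above background, the siRNA medians were -0.39 for integrins and -0.37 for laminins. There 1 member, 1 adhesion complex gene, 1 basement membrane gene and 1 other ligand were lower with MET siRNA, and 1 ligand was higher. With normexp, 3 members (LAMA3, LAMA5 and LAMB2) and 1 adhesion complex gene were higher with PHA665752, 1 ligand was higher with MET siRNA, and between the controls 0 members were past 2-fold in either direction and 0 ligands lower. With normexp the difference between LAMA4 and LAMA2 with PHA665752 turned to -0.22. Without a filter on dim probes, 1 member was lower with MET siRNA, 2 members were higher between the controls, 1 adhesion complex gene was higher and 1 lower, 1 basement membrane gene was lower with MET siRNA, and 1 was higher between the controls. When both arrays of a pair had to be well above background, 0 members were lower between the controls. With the median over probes, 1 adhesion complex gene was lower with PHA665752, and LAMA4 stood at -0.29. With the series matrix values, 0 ligands were lower between the controls. The cause of these moves was not tested. Signal close to background on at least 1 array limits ITGA2, ITGA11, ITGAX, ITGB2, ITGB4, ITGB8, LAMA1, LAMA2 and LAMC3. Among other named genes, EDIL3, FBN1, PTK2B, VWF and CDH1 were dim with DMSO, at 34, 38.6, 38.4, 30.9 and 33.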
